A study of Mus musculus with 130 samples.

Results

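The S-G2-M gate of flow-sorted mouse embryo cells was compared with unsorted cells of the same preparations, to ask which genes set the dividing part of the embryo apart from the embryo as a whole. The embryos were FVB/NJ and carried FUCCI, a reporter whose red and green fluorescent proteins report the position of a cell in the division cycle, and the labels assign the green gate (GR) to S-G2-M. The libraries were chosen by label alone: all S-G2-M and all unsorted (US) libraries, with the parts of a library summed. This gave 10 of the 25 libraries of the series, made of 52 of 130 deposited samples, with 5 libraries in the S-G2-M group and 5 in the unsorted group. Each group held 1 library from each of 5 preparations, namely WT1 and WT2, taken at embryonic day 10.5 (E10.5), WT3, taken at E11.5, and the E13.5 preparations 5 and 8. The embryos were minced, cells were sorted by flow cytometry, total RNA was depleted of ribosomal RNA and sequenced, and both groups carried the reporter, with no other allele and no treatment in the labels. How many embryos went into a preparation is not stated in the labels, so p-values measure the spread between preparations, whatever these are. Unsorted cells also hold the cells of the gate, so each change is that of a part against the whole that contains it.

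In the division cycle a cell licenses its replication origins in G1, copies its DNA in S phase, and builds up the cyclin B kinase and the spindle apparatus in G2 for mitosis. FUCCI reads this order through fragments of Cdt1, which is destroyed in S phase, and of geminin (Gmnn), which is destroyed from late mitosis through G1. Genes of mitosis are repressed in resting cells by the DREAM complex and switched on in G2 by MuvB with B-Myb and FoxM1. Promoters of this class often carry a CCAAT box and a cell cycle homology element (TTTGAA), while promoters of red cell genes often carry GATA and CACCC motifs.

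Promoters of genes that stood high in the gate are shown first, because CCAAT can be read in all 6 of them and TTTGAA in 3, and those of 3 globin genes, the lowest in the gate, follow. Each line gives the 120 bases before a RefSeq start (build GRCm38.p6), 5′ to 3′ along the gene. In the first 6 the capitals mark CCAAT and TTTGAA on either strand. In the last 3 they mark CCAAT in the same way, then CCACCC, and also the letters GATA with A or T before them and A or G after them, all on either strand.
Kpna2: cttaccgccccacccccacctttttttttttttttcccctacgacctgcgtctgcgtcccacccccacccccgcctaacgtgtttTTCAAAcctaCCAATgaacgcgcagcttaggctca
Cdk1: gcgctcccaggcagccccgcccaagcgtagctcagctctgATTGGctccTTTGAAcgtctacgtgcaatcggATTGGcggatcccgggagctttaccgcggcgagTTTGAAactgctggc
Ccnb1: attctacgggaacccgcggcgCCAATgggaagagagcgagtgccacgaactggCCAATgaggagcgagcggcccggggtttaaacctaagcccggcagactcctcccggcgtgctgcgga
Plk1: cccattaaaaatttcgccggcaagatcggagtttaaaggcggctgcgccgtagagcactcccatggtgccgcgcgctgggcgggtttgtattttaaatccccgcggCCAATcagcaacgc
Top2a: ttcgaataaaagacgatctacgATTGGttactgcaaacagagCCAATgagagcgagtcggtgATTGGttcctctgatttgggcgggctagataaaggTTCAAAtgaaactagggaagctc
Aspm: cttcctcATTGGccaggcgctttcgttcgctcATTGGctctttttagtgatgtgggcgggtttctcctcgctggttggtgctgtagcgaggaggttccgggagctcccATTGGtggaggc
Hba-x: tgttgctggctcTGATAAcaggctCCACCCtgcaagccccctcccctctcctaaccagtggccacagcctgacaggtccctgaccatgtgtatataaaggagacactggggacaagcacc
Hbb-y: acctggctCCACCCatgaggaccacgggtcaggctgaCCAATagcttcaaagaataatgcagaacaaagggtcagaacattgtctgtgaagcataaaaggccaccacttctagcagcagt
Hba-a1: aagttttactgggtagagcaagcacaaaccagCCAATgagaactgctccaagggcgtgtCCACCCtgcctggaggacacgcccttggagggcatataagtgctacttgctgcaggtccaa
The windows lie at chr11:106999526-106999645 (Kpna2, - strand), chr10:69352913-69353032 (Cdk1, - strand), chr13:100786487-100786606 (Ccnb1, - strand), chr7:122159315-122159434 (Plk1, + strand), chr11:99024190-99024309 (Top2a, - strand), chr1:139454653-139454772 (Aspm, + strand), chr11:32276480-32276599 (Hba-x, + strand), chr7:103853208-103853327 (Hbb-y, - strand) and chr11:32283552-32283671 (Hba-a1, + strand).
Within the 250 bases before the start, CCAAT stood in 46 of 68 genes of the 5 mitotic lists that had such a window (67.6%), against 37.5% of all 27025 genes with a window and 39.4% of those tested for a change. In other lists CCAAT stood in 27 of 45 licensing and DNA synthesis genes (60%), 9 of 13 recombination genes (69.2%) and 11 of 22 neuronal genes (50%). TTTGAA stood in 23 of 68 (33.8%), against 18.3% of all genes and 12.8% of those tested, and both motifs in 18 of 68 (26.5%), against 6.45% and 4.74%. Of the 17 erythroid genes with a window, 13 held a GATA motif (76.5%) and 12 held CCACCC (70.6%), against 20.6% and 37.8% of the genes tested. CCAAT stood in 9 of these 17 (52.9%), and CCACCC in 13 of 22 neuronal genes (59.1%). A match is a string of letters and not evidence of binding, and the printed windows of Ccnb1, Plk1 and Aspm held no TTTGAA.

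Library totals were 14692256 to 58492064 counts in the S-G2-M group and 26154184 to 48976375 counts in the unsorted group. Mitochondrially encoded genes took 0.409% to 2.30% of the S-G2-M counts and 0.402% to 2.19% of the unsorted counts, and the shares above 2% in both groups were those of preparations 5 and 8. Preparation WT3 stood apart in the gap between its libraries, in genes counted and in short genes. Its unsorted library had counts for 28144 genes, against 31921 in its S-G2-M library, and the median change over the protein-coding genes with exons of at most 1500 bases was -0.88 on the log2 scale, against -0.18, -0.14, -0.44 and -0.35 in WT1, WT2, 5 and 8. Its Xist level was 196 CPM (the count scaled to a common library size) in the S-G2-M library and 41.0 CPM in the unsorted library, while Ddx3y of chromosome Y was at 63.1 and 73.6 CPM. Xist also differed within preparation 8, at 2098 CPM in the S-G2-M library and 701 CPM in the unsorted library. Gene type and length also moved with the comparison. Of 1506 genes of the GENCODE type TEC (single-exon loci of unsettled status, many of them within genes), 431 were higher and 5 lower, with pair medians of 0.05, 0.30, 2.30, 1.56 and 1.69 in WT1, WT2, WT3, 5 and 8. Protein-coding genes as a whole were higher in 8.15% and lower in 18.9% of cases. Taking those whose mean log2 CPM reached 3, 7 were higher and 208 lower of 477 with exons of at most 1500 bases, and 748 were higher and 408 lower of 3997 with exons over 6000 bases. The part of these differences in the results below was not tested, beyond a fit with a term for exon length.

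**Figure D1:**
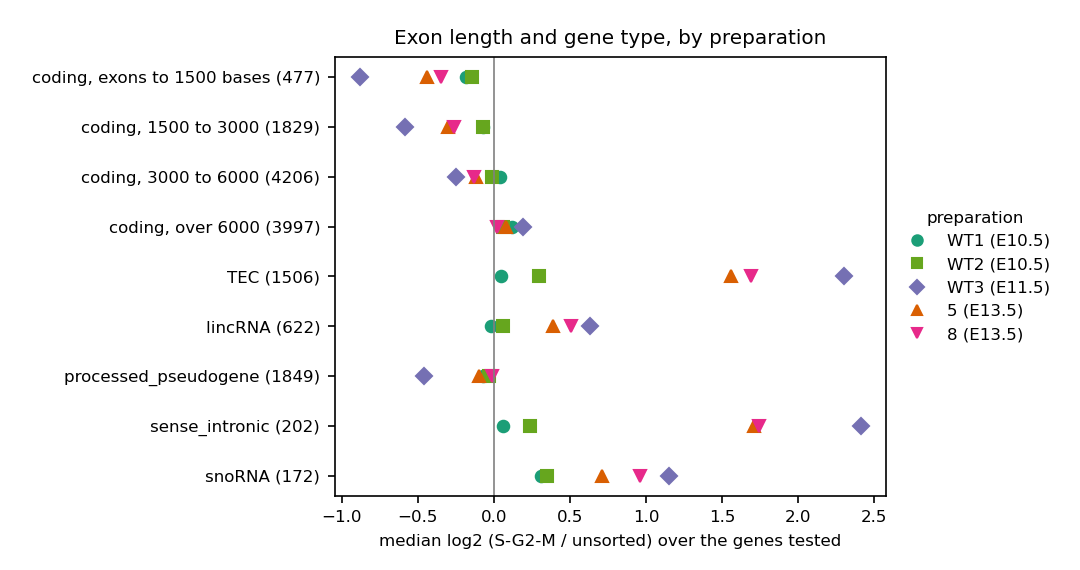
Median log2 ratio of S-G2-M over unsorted (x axis) for protein-coding genes by exon length and for 5 GENCODE gene types (rows, with the number of genes tested), with 1 symbol for each preparation. TEC and sense intronic genes lie near 0 in WT1 and WT2 and between 1.56 and 2.41 in WT3, 5 and 8, and short coding genes lie lowest in WT3, at -0.88.

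Over all genes more were lower than higher in the gate, and the largest changes were toward lower levels. Of 21569 genes tested, 1906 were higher in S-G2-M (8.84%) and 3139 lower (14.6%; edgeR quasi-likelihood test with preparation as a block, Benjamini-Hochberg adjusted p under 0.05). Of these 5045 genes, 4798 moved the same way in all 5 preparations, and in 1783 the 2 groups did not overlap. Among the genes called, 34 were higher and 503 lower by at least 4-fold, and 0 were higher and 218 lower by at least 8-fold. The median change over all genes tested was -0.02. Preparations 5 and 8 carried many of the calls: without 5 the count was 1572 (372 higher) and without 8 it was 1848 (358 higher). Within WT1, WT2 and WT3 alone it was 666 (27 higher), and within 5 and 8 alone it was 12365 (6016 higher).

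**Figure D2:**
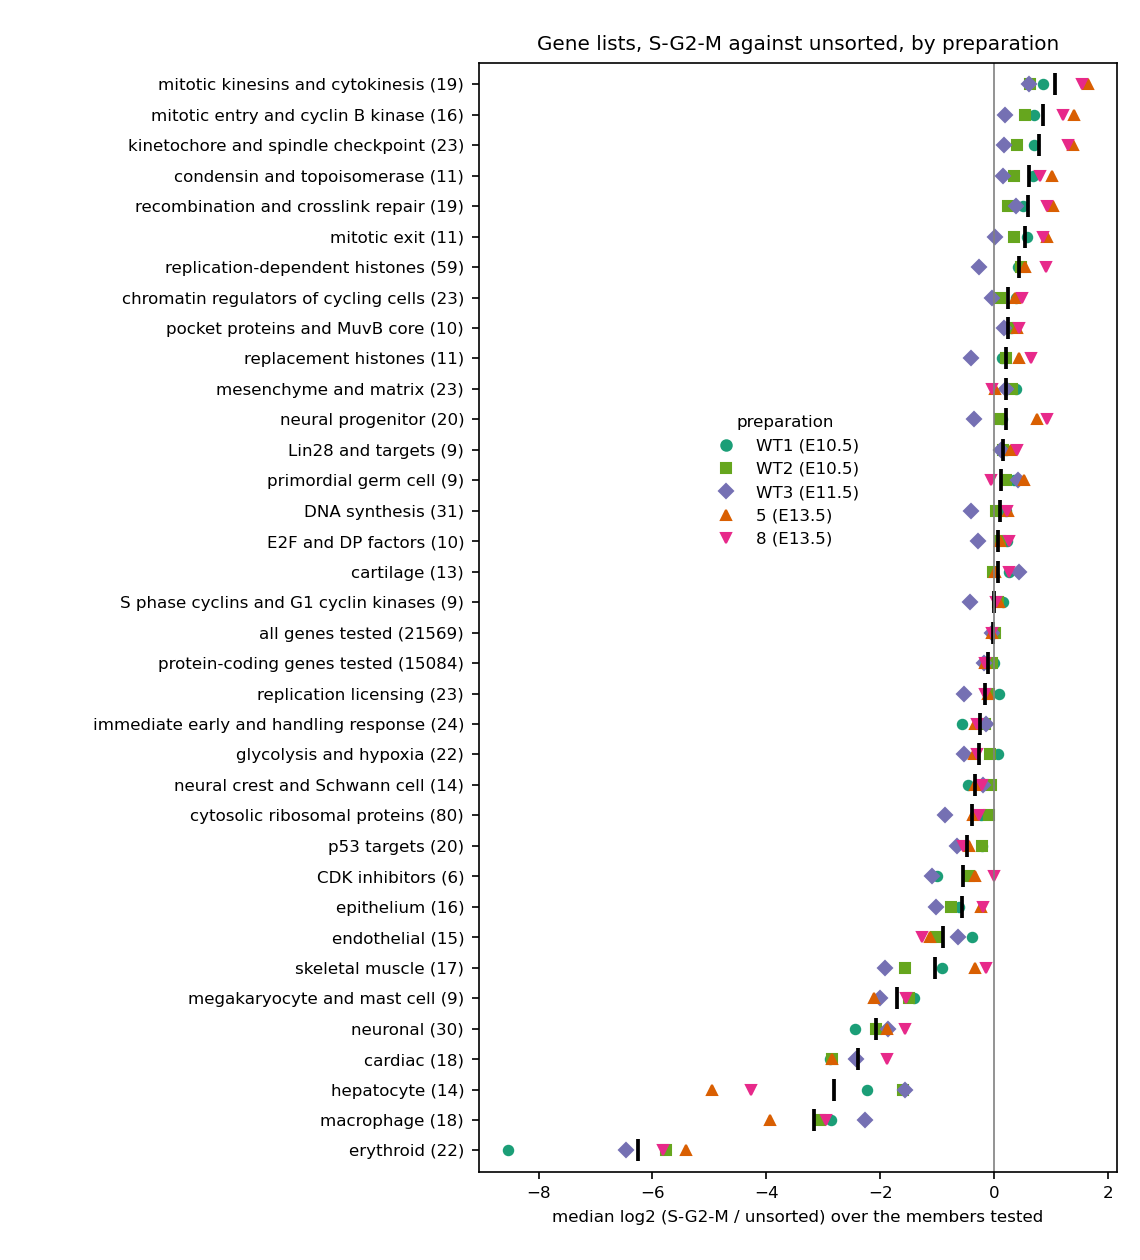
Median log2 ratio of S-G2-M over unsorted (x axis) over the tested members of each gene list (rows, with the number tested), with 1 symbol for each preparation and a black bar for the median of the fitted changes. The mitotic lists lie to the right of 0 in each preparation, up to 1.65 in preparation 5, and the erythroid list lies farthest to the left, at -8.54 in WT1.

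Genes that drive entry into mitosis were higher in S-G2-M. Their summed level was 2330 to 3300 CPM in S-G2-M, 878 to 1650 CPM in G1-S, 171 to 315 CPM in G1, 95.9 to 145 CPM in G0 and 1410 to 2290 CPM in unsorted cells, so these markers stood where the label of the gate puts them. Here and below, values of 5 libraries are in the order WT1, WT2, WT3, 5 and 8, and changes are log2 ratios of S-G2-M over unsorted with their SE. Of 16 genes of this list, 12 rose and none fell, against 8.84% of all genes that rose, with a median log2 change of 0.86. Ccnb1, cyclin B1 (ENSMUSG00000041431.16, chr13:100778650-100786570, - strand, GRCm38), was at 216, 231, 218, 279 and 232 CPM in the S-G2-M libraries of WT1, WT2, WT3, 5 and 8, against 105, 146, 199.8, 102 and 100.3 CPM in the unsorted libraries. Every S-G2-M library stood above every unsorted one, and the gap was narrowest in WT3. Its log2 change was 0.90 ± 0.18 (SE, n = 5 preparations, adjusted p = 0.0111); GENCODE lists a pseudogene copy of Ccnb1, with which reads may be shared. Cdk1, the kinase that cyclin B activates (ENSMUSG00000019942.13, chr10:69335146-69352938, - strand, GRCm38), was at 242, 257, 248, 308 and 287 CPM in S-G2-M and at 124, 181, 266, 109.6 and 102 CPM in unsorted cells. The unsorted library of WT3 exceeded its S-G2-M partner, so the groups overlapped, and the change was 0.87 ± 0.23 (adjusted p = 0.0279). Plk1, a kinase that activates cyclin B with Cdk1 and sets up the spindle (ENSMUSG00000030867.7, chr7:122159439-122169873, + strand, GRCm38), was at 114, 136, 132, 187 and 186 CPM in S-G2-M and at 62.5, 78.7, 107, 62.2 and 64.8 CPM in unsorted cells, without overlap (1.01 ± 0.18, adjusted p = 0.00755). Foxm1, a transcription factor of mitotic genes (ENSMUSG00000001517.14, chr6:128362967-128376146, + strand, GRCm38), was at 107, 103, 88.2, 228 and 249.5 CPM in S-G2-M and at 65.5, 55, 42.9, 60.9 and 58.4 CPM in unsorted cells. Its S-G2-M levels were highest in the E13.5 preparations, and it rose by 1.32 ± 0.21 (adjusted p = 0.00452). Cyclin A2 (Ccna2), which serves S phase and G2, missed the test at 0.50 ± 0.17 (adjusted p = 0.0581), and the values of Ccnb2, a second cyclin B, and Cdc25b, a phosphatase that activates Cdk1, were 0.05 ± 0.17 and -0.02 ± 0.10.

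The machinery of chromosome segregation rose with them. All 19 genes of mitotic kinesins and cytokinesis rose, with a median of 1.06 and no overlap between the groups for 18 of them, against 9.58% of all genes. Kifc1, a minus-end kinesin that focuses spindle poles (ENSMUSG00000079553.10, chr17:33875659-33890661, - strand, GRCm38), was at 97.1, 79.04, 83.9, 112 and 134 CPM in S-G2-M and at 55.8, 46.6, 37.2, 31.01 and 33.5 CPM in unsorted cells (1.31 ± 0.20, adjusted p = 0.00348); its neighbour Kifc5b is a near-identical copy and moved by 1.37 ± 0.21, and reads of the pair may be shared. Aspm, a spindle pole protein whose loss causes microcephaly (ENSMUSG00000033952.14, chr1:139454772-139494091, + strand, GRCm38), was at 461, 429.5, 398, 756 and 667 CPM in S-G2-M and at 211, 262, 208, 199 and 205 CPM in unsorted cells. The unsorted levels of Aspm lay close together, while the S-G2-M levels of 5 and 8 exceeded those of the earlier days, and the change was 1.28 ± 0.18 (adjusted p = 0.00267). Kinetochore and spindle checkpoint genes rose in 16 of 23 cases (median 0.79), led by Cenpf at 1.2 ± 0.17 and Incenp, which anchors the Aurora B kinase, at 1.12 ± 0.19. Condensin and topoisomerase genes rose in 8 of 11 cases (median 0.61). Top2a, which untangles sister chromatids (ENSMUSG00000020914.17, chr11:98992943-99024189, - strand, GRCm38), was at 1904, 1896, 1929, 1859 and 1757 CPM in S-G2-M and at 826, 1190, 1379, 627 and 652 CPM in unsorted cells. Its S-G2-M levels were nearly the same in all preparations, the unsorted levels were lowest at E13.5, and the change was 1.07 ± 0.18 (adjusted p = 0.00497). Ncaph, a condensin subunit, rose by 0.92 ± 0.15 and the proliferation marker Mki67 by 0.69 ± 0.15. Mitotic exit genes rose in 7 of 11 cases (median 0.54), with Espl1, the protease separase, at 1.17 ± 0.17 and Fzr1, an activator of the ubiquitin ligase that ends mitosis, at 0.88 ± 0.10.

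Over these 5 mitotic lists together, 62 of 80 genes rose and none fell, 56 were higher in all 5 preparations, and the groups did not overlap for 45. The preparations differed in size: the median change over the 80 genes was 0.70 in WT1, 0.49 in WT2, 0.24 in WT3, 1.4 in 5 and 1.3 in 8, and in WT3 56 of the 80 were higher, against 78, 79, 80 and 80 in the others. Without WT3 75 of the 80 passed the test, without 5 it was 37 and without 8 it was 35. Within WT1, WT2 and WT3 alone 9 passed, and within 5 and 8 alone all 80. Cdk1 and Mki67 did not pass without 5 (adjusted p = 0.0992 and 0.0611) or without 8 (adjusted p = 0.0982 and 0.0643).

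Other genes among the 8 highest changes, ranked without predicted, RIKEN and small RNA genes, lay outside the lists. Kpna2, importin alpha, which carries spindle assembly factors (ENSMUSG00000018362.14, chr11:106988629-106999541, - strand, GRCm38), was at 39.5, 29.5, 55.9, 89.01 and 75.8 CPM in S-G2-M and at 19.7, 16.6, 10.3, 18.4 and 17.2 CPM in unsorted cells. All S-G2-M libraries lay above all unsorted ones, and the widest pair was that of WT3 (1.74 ± 0.25, adjusted p = 0.00306); GENCODE lists a pseudogene copy. Cdca2, which recruits a phosphatase to chromatin as mitosis ends (ENSMUSG00000048922.18, chr14:67676331-67715841, - strand, GRCm38), was at 222, 205, 233, 266 and 244 CPM in S-G2-M and at 114, 113, 119, 62.3 and 57.8 CPM in unsorted cells (1.39 ± 0.21, adjusted p = 0.00388). Pif1, a DNA helicase, rose by 1.38 ± 0.23, Troap, a protein of the spindle poles, by 1.33 ± 0.27 and Prr11 by 1.32 ± 0.17. Ppnr was also among the 8 highest at 1.61 ± 0.41, with overlapping groups, and did not pass without 5, 8 or WT3 (adjusted p = 0.0801, 0.088 and 0.0646).

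**Figure D3:**
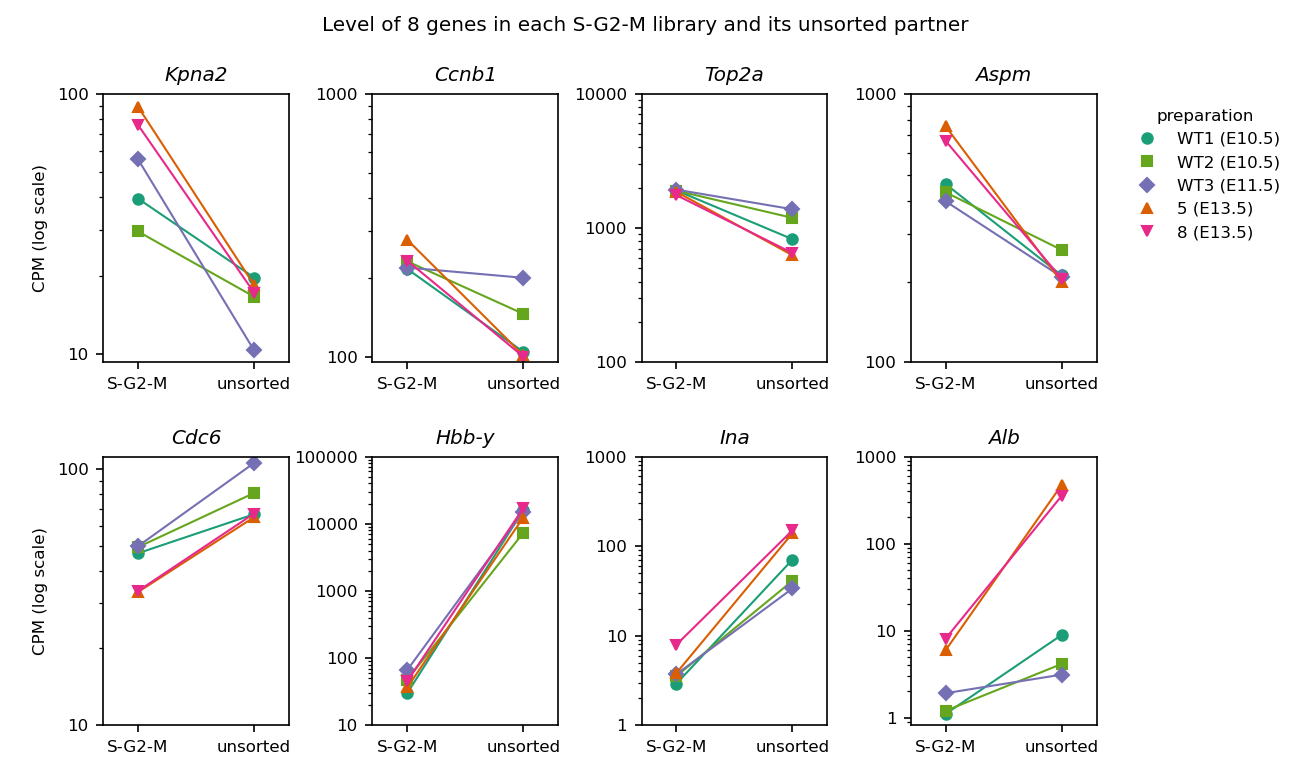
CPM (log scale) of 8 genes in each S-G2-M library (left) and its unsorted partner (right), with 1 line for each preparation. Kpna2, Ccnb1, Top2a and Aspm stand higher on the S-G2-M side in all 5 preparations, and Cdc6, Hbb-y, Ina and Alb higher on the unsorted side, Alb most in the E13.5 preparations.

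Repair genes that act on replicated DNA were also higher. Of 19 genes of recombination and crosslink repair, 15 rose and none fell, with a median of 0.60. Their summed level was 1340 to 1480 CPM in S-G2-M, 1350 to 1800 CPM in G1-S and 704 to 1180 CPM in unsorted cells. It was 373 to 693 CPM in G1 and 231 to 325 CPM in G0, so the level was not particular to the S-G2-M gate. Rad54b, a motor protein of strand exchange (ENSMUSG00000078773.11, chr4:11558922-11615805, + strand, GRCm38), was at 40.7, 31.8, 33.99, 62.4 and 61.3 CPM in S-G2-M and at 26.6, 24.03, 16.2, 16.4 and 18.2 CPM in unsorted cells, without overlap (1.15 ± 0.23, adjusted p = 0.0106). Fanca, a core protein of crosslink repair, was at 0.91 ± 0.23, and Brca1 and Brca2, which act in strand exchange, were at 0.64 ± 0.12 and 0.60 ± 0.10. Without 5, and likewise without 8, 6 of the 19 passed. Fanca did not pass without WT3, 5 or 8 (adjusted p = 0.0543, 0.0793 and 0.0714).

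Genes that start and run DNA replication were set against 8.84% of all genes that rose and 14.6% that fell. Of 23 licensing genes 2 rose and 3 fell (median -0.16), and of 31 DNA synthesis genes 4 rose and none fell (median 0.10). Without WT1 7 licensing genes fell, and without 5, or without 8, 1 rose and 1 fell. Cdc6, which loads the MCM helicase on origins in G1 (ENSMUSG00000017499.15, chr11:98907801-98923940, + strand, GRCm38), was at 46.9, 49.5, 49.9, 33.1 and 33.4 CPM in S-G2-M and at 66.5, 80.5, 105, 64.8 and 66.9 CPM in unsorted cells. Every S-G2-M library lay below every unsorted one, and the change was -0.85 ± 0.11 (adjusted p = 0.00159). Mean levels of Cdc6 in the other gates were 158.5 CPM in G1-S, 56.1 CPM in G1 and 16.4 CPM in G0, with no test. Its partner Cdt1 was at 50, 59.6, 50.5, 54.98 and 61.7 CPM in S-G2-M and at 64.95, 65.4, 72.9, 78.2 and 80.3 CPM in unsorted cells (-0.39 ± 0.09, adjusted p = 0.0209), but did not pass without 5 or 8 or with a term for exon length (adjusted p = 0.135, 0.0739 and 0.109). Gmnn, the inhibitor of Cdt1 and the source of the green reporter's fragment (ENSMUSG00000006715.11, chr13:24751845-24761923, - strand, GRCm38), was at 70.01, 75.4, 75.6, 35.5 and 38.4 CPM in S-G2-M and at 56.4, 78.8, 126, 31.9 and 32.2 CPM in unsorted cells. The E13.5 libraries of both groups stood lowest, the groups overlapped, and the change was -0.02 ± 0.15 (adjusted p = 0.935). The reporter acts through protein destruction, and these are RNA levels. Mcm2, an MCM subunit, was lower at -0.41 ± 0.11. The kinase pair that fires origins moved the other way: Dbf4 rose by 0.78 ± 0.15 and Cdc7 by 0.37 ± 0.10. Pole, a leading strand polymerase, rose by 0.76 ± 0.17, and Dnmt1, which copies DNA methylation after replication, by 0.36 ± 0.10. The remaining values of the DNA synthesis list ran between -0.19 and 0.50, with Pcna, the sliding clamp, at -0.12 ± 0.12. Of the DNA synthesis genes 10 passed without WT3. Without 5, 0 passed in edgeR (3 at an unadjusted p under 0.05), and without 8 also 0 (3). Cdc7 and Mcm2 did not pass without 5 (adjusted p = 0.125 and 0.164) or 8 (adjusted p = 0.125 and 0.119), and Mcm2 also not without WT3 (adjusted p = 0.0647).

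E2F transcription factors, which switch on genes of S phase, moved in both directions. The activators split: E2f2 was at 22.4, 19.6, 17.5, 41.2 and 40.8 CPM in S-G2-M and at 40.8, 29.6, 32.4, 140.5 and 126 CPM in unsorted cells, lower in each pair (-1.15 ± 0.18, adjusted p = 0.00411), while E2f3 was at 83.8, 85.8, 86.2, 98.4 and 97.1 CPM in S-G2-M and at 70.5, 69.2, 68.8, 54.6 and 56.4 CPM in unsorted cells, higher without overlap (0.50 ± 0.12, adjusted p = 0.0199). E2f1 was at -0.14 ± 0.17 (adjusted p = 0.54). Mean levels of E2f2 in the other gates were 53.4 CPM in G1-S, 17.3 CPM in G1 and 5.94 CPM in G0, with no test. All gates, S-G2-M at a mean of 28.3 CPM among them, lay below the unsorted mean of 73.8 CPM for E2f2. Both atypical repressors were higher, E2f7 at 63.1, 57.6, 52.6, 101 and 103 CPM in S-G2-M and 49.01, 45.1, 37.3, 30.6 and 32.97 CPM in unsorted cells (0.91 ± 0.23, adjusted p = 0.0264) and E2f8 at 0.49 ± 0.12 (adjusted p = 0.0202). E2f4, a partner of the pocket proteins, was lower at -0.40 ± 0.12. The mean CPM of E2f4 was 55.7 in S-G2-M, 45.4 in G1-S, 41.1 in G1, 30.4 in G0 and 75.03 in unsorted cells. Of 10 pocket protein and MuvB genes 4 rose and none fell, among them Rbl1 (p107) at 0.53 ± 0.10 with groups that did not overlap. Without 5 the calls of E2f3, E2f7 and E2f8 were lost (adjusted p = 0.0867, 0.0822 and 0.0884), and likewise without 8 (adjusted p = 0.0854, 0.0854 and 0.0909), and so was that of Rbl1 (adjusted p = 0.0563 without 5 and 0.0514 without 8), while that of E2f2 held in both; E2f4 was lost in both and without WT1 or WT3 (adjusted p = 0.0698 to 0.208). Its call was also lost with a term for exon length (-0.14, adjusted p = 0.335), with RLE scaling, scaling by totals, the CPM filter and limma-voom (adjusted p = 0.0563, 0.0883, 0.0554 and 0.0535). Of the pocket protein and MuvB genes, 1 passed without 5, 1 without 8 and 2 without WT1.

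Cyclins of G1 gave no common direction. Ccnd1 was at -0.01 ± 0.13 and Ccne1 at -0.13 ± 0.14 (adjusted p = 0.951 and 0.479), Ccnd3 was lower at -0.56 ± 0.10 and Ccne2 at -0.54 ± 0.13, and Cdk6, a kinase partner of D cyclins, was higher at 0.46 ± 0.11. The mean CPM of Ccnd3 was 86.9 in S-G2-M, 100.9 in G1-S, 81.8 in G1, 42.1 in G0 and 127.5 in unsorted cells. Among CDK inhibitors, which hold cells in G1 or G0, none of 6 rose and 2 fell, against 8.84% and 14.6% of all genes. Cdkn1c (p57, ENSMUSG00000037664.13, chr7:143458339-143461050, - strand, GRCm38) was at 76.96, 97.1, 84.9, 604 and 580.0 CPM in S-G2-M and at 169, 166, 241, 827 and 831 CPM in unsorted cells. It was lower in each of the 5 pairs, although the E13.5 libraries of both groups stood far above all the others, and 30.7% of its exon length lies under exons of the opposite strand (-0.88 ± 0.16, adjusted p = 0.00797). Cdkn1a (p21) was at 1.02, 1.38, 1.16, 3.43 and 4.63 CPM in S-G2-M and at 2.93, 2.98, 2.23, 6.14 and 8.82 CPM in unsorted cells (-1.06 ± 0.20, adjusted p = 0.00951), and Cdkn1b (p27) was at 0.07 ± 0.10 (adjusted p = 0.602). Ccne2 did not pass without WT3, 5 or 8 (adjusted p = 0.0578, 0.0842 and 0.084).

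Replication-dependent histone genes, transcribed in S phase, had positive medians in 4 preparations and a negative one in WT3. Of 59 tested of 66, 7 rose and 1 fell, against 8.84% of all genes that rose and 14.6% that fell. The pair medians were 0.41, 0.47, -0.26, 0.54 and 0.91. Hist1h1e, a linker histone (ENSMUSG00000051627.3, chr13:23620629-23622558, - strand, GRCm38), was at 772, 892, 736, 1205 and 1518 CPM in S-G2-M and at 583, 606, 696, 745 and 707 CPM in unsorted cells (0.57 ± 0.15, adjusted p = 0.0273). The count of 7 varied widely: 31 rose with scaling by totals, 32 in DESeq2, 25 with no replicate block, 25 with no filter, 23 with the CPM filter, 13 in limma-voom, 47 of 62 without WT3 and 53 of 59 with a term for exon length, against 1 of 62 without WT2. Without 5, 0 passed in edgeR (24 at an unadjusted p under 0.05), and without 8 also 0 (7); many of these genes are near-identical copies that may share reads. The gene that fell, Hist3h2a, lies apart from the main clusters (-0.89 ± 0.25). Of 11 replacement histones, Cenpa, the centromere histone, rose by 0.83 ± 0.23 and H1f0, a linker histone of slowly dividing cells, by 0.50 ± 0.13, while H2afj was lower at -0.96 ± 0.13 and H3f3a at -0.54 ± 0.15. Chromatin regulators rose in 7 of 23 cases and Lmna fell, and 2 rose without 5, as without 8. Ezh2, the methyltransferase of Polycomb (ENSMUSG00000029687.16, chr6:47530139-47595341, - strand, GRCm38), was at 246, 190.3, 204, 239 and 242 CPM in S-G2-M and at 183, 160.5, 122, 129 and 128 CPM in unsorted cells, without overlap (0.64 ± 0.12, adjusted p = 0.00896). Lmna, the lamin of differentiated cells, was at 9.496, 10.6, 9.17, 58.5 and 68.3 CPM in S-G2-M and at 44.2, 28.8, 30.2, 124 and 128 CPM in unsorted cells, lower in every pair (-1.47 ± 0.18, adjusted p = 0.00134). Hmgn2 rose by 1.21 ± 0.23, with a pseudogene copy in GENCODE as for H3f3a, and Hmga2, a target of let-7 in progenitors, by 0.49 ± 0.10. Neither Lin28a (-0.34 ± 0.15) nor Lin28b (-0.25 ± 0.22) passed. Cenpa, H1f0, H3f3a, Hist1h1e, Hist3h2a and Hmga2 did not pass without 5 or without 8 (adjusted p = 0.059 to 0.153), and H3f3a and Hist3h2a also not without WT3 (adjusted p = 0.0801 and 0.0538), nor H1f0 and Hist1h1e without WT2 (adjusted p = 0.0513 and 0.0528).

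Genes of neurons, cells that have left the cycle, were lower in the gate. Of 30 neuronal genes 29 fell and none rose (median -2.07; pair medians -2.44, -2.07, -1.86, -1.89 and -1.57), against 14.6% of all genes that fell, and the groups did not overlap for 20. Ina, a neuronal intermediate filament (ENSMUSG00000034336.3, chr19:47014698-47025327, + strand, GRCm38), was at 2.92, 3.55, 3.73, 3.84 and 7.95 CPM in S-G2-M and at 70.8, 41.1, 33.7, 139.5 and 150.3 CPM in unsorted cells. No library of the gate came near an unsorted one, and the change was -4.11 ± 0.28 (adjusted p = 5.45e-05). Stmn2, a tubulin-binding protein of growing axons (ENSMUSG00000027500.10, chr3:8509360-8561606, + strand, GRCm38), was at 3.94, 4.42, 5.07, 8.403 and 11.3 CPM in S-G2-M and at 109.6, 63.02, 60.4, 97.7 and 96.6 CPM in unsorted cells (-3.76 ± 0.23, adjusted p = 3.12e-05). Tubb3, the neuronal beta tubulin, was at -2.50 ± 0.18 and the splicing regulators Elavl3 and Rbfox3 at -1.47 ± 0.15 and -1.16 ± 0.27. The gene that did not pass was Lhx9 (-0.06 ± 0.14). Summed over the list, the level was 371 to 769 CPM in S-G2-M, 671 to 1430 CPM in G1-S, 1190 to 3650 CPM in G1, 8250 to 16200 CPM in G0 and 1640 to 3010 CPM in unsorted cells. In bulk RNA, fewer cells of a type and less RNA per cell cannot be told apart, here and for the cell types that follow.

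Of 20 genes of neural progenitors, 5 rose and 2 fell, against 8.84% and 14.6% of all genes. Their median was 0.20, with pair medians of 0.14, 0.10, -0.35, 0.76 and 0.92. Sox1, a marker of the early neural tube (ENSMUSG00000096014.1, chr8:12395295-12400126, + strand, GRCm38), was at 37.3, 35.01, 36.7, 59.4 and 72.3 CPM in S-G2-M and at 24.6, 22.2, 29.2, 22.99 and 24.8 CPM in unsorted cells, and the groups did not overlap (0.90 ± 0.18, adjusted p = 0.0119). Pax6, a regulator of cortical and retinal progenitors, was at 59.6, 55.5, 54.7, 59.2 and 63.6 CPM in S-G2-M and at 45.2, 43.4, 49.5, 20.2 and 20.7 CPM in unsorted cells. Its level hardly varied within the gate and was lowest in the unsorted cells of E13.5 (0.80 ± 0.23, adjusted p = 0.0399). The genes that fell were Dll3 (-0.99 ± 0.31), a Notch pathway gene of cells leaving the progenitor state, and Vim (-0.39 ± 0.12). With scaling by totals neither Dll3 nor Vim passed (adjusted p = 0.064 and 0.057). With a term for exon length neither passed (adjusted p = 0.133 and 0.0706). Without WT3 8 rose and none fell, as with a term for exon length, and without 5 (0 fell) or 8 (1 fell) 2 rose. Pax6 did not pass without 5 or 8 or with a term for exon length (adjusted p = 0.126, 0.123 and 0.101), Vim without any of WT2, WT3, 5 or 8 (adjusted p = 0.0773 to 0.188) and Dll3 without any of WT1, WT2, WT3 or 5 (adjusted p = 0.0592 to 0.133).

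Genes of red blood cells were the lowest of any list. All 22 erythroid genes fell, with a median of -6.26 and pair medians of -8.54, -5.76, -6.46, -5.41 and -5.82, and the groups did not overlap for 20. The embryonic beta-like globin Hbb-y (ENSMUSG00000052187.4, chr7:103851749-103853216, - strand, GRCm38) was at 30.1, 47.9, 66.7, 36.7 and 45.4 CPM in S-G2-M and at 15850, 7321, 15090, 12370 and 17060 CPM in unsorted cells. The highest library of the gate lay far below the lowest unsorted library, and the change was -8.21 ± 0.32 (adjusted p = 7.02e-06). Hba-x, the embryonic alpha-like globin (ENSMUSG00000055609.8, chr11:32276400-32278116, + strand, GRCm38), was at 4.78, 10.3, 14.1, 5.02 and 5.81 CPM in S-G2-M and at 2831, 1817, 3332, 1612 and 2154 CPM in unsorted cells (-8.26 ± 0.30, adjusted p = 5.98e-06). Hba-a1, an alpha globin of fetal and adult cells (ENSMUSG00000069919.7, chr11:32283511-32284465, + strand, GRCm38), was at 4.26, 13.5, 14.5, 173 and 124 CPM in S-G2-M and at 2251, 1191, 1960, 12360 and 11750 CPM in unsorted cells. Both groups were higher at E13.5, and the gap was widest in WT1 (-6.99 ± 0.45, adjusted p = 4.06e-05); globin genes have similar copies that may share reads. The fall was not limited to globins. Slc4a1, the anion exchanger of the red cell membrane, was at 1.23, 2.54, 3.35, 29.5 and 16.2 CPM in S-G2-M and at 688, 379.8, 523, 1195 and 1213 CPM in unsorted cells (-6.93 ± 0.52, adjusted p = 9.14e-05), and Gata1 and Klf1, regulators of the lineage, changed by -5.54 ± 0.30 and -5.68 ± 0.18. Tfrc, the transferrin receptor that most dividing cells also carry, changed least of the list (-1.71 ± 0.28). The summed level of the list was 248 to 611 CPM in S-G2-M, 775 to 2270 CPM in G1-S, 668 to 3560 CPM in G1, 287 to 835 CPM in G0 and 17800 to 45600 CPM in unsorted cells, so the other 3 gates also lay below unsorted cells.

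Other blood cells and liver cells were also lower. Of 18 macrophage genes 17 fell and none rose (median -3.16). C1qb, a complement subunit made by macrophages (ENSMUSG00000036905.8, chr4:136880129-136886187, - strand, GRCm38), was at 0.456, 0.227, 0.749, 0.205 and 0.138 CPM in S-G2-M and at 6.84, 3.71, 6.95, 13.7 and 11.3 CPM in unsorted cells, without overlap (-4.37 ± 0.44, adjusted p = 0.000458). C1qa changed by -3.98 ± 0.34 and Csf1r, the receptor that macrophages need, by -2.82 ± 0.31, while Cd68 missed the test at 0.45 ± 0.20. The summed macrophage level was 20.2 to 50.1 CPM in S-G2-M, 127 to 477 CPM in G1-S, 57.3 to 101 CPM in G1, 20.3 to 32.6 CPM in G0 and 99.3 to 375 CPM in unsorted cells. Of 9 megakaryocyte and mast cell genes 5 fell, among them the platelet genes Ppbp (-4.16 ± 0.34) and Gp9 (-3.43 ± 0.36). Hepatocyte genes fell in 13 of 14 cases (median -2.81; pair medians -2.23, -1.60, -1.56, -4.96 and -4.27), and without 8 in 8 of 14. With no filter beyond a count in 1 library, 4 of 17 fell. Afp, alpha-fetoprotein (ENSMUSG00000054932.6, chr5:90490737-90508907, + strand, GRCm38), was at 17.1, 14.02, 24.4, 10.97 and 13.6 CPM in S-G2-M and at 116, 60.5, 90.8, 686 and 497 CPM in unsorted cells. Its unsorted levels were several-fold higher at E13.5, while the gate stayed at or below 24.4 CPM (-3.48 ± 0.64, adjusted p = 0.00822). Afp did not pass with no filter (adjusted p = 0.0929). The summed hepatocyte level at E13.5 was 40.6 and 50 CPM in S-G2-M, 2770 and 2040 CPM in G1-S, 36.2 and 28.3 CPM in G1, 69.6 and 55.5 CPM in G0 and 1760 and 1320 CPM in unsorted cells.

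**Figure D4:**
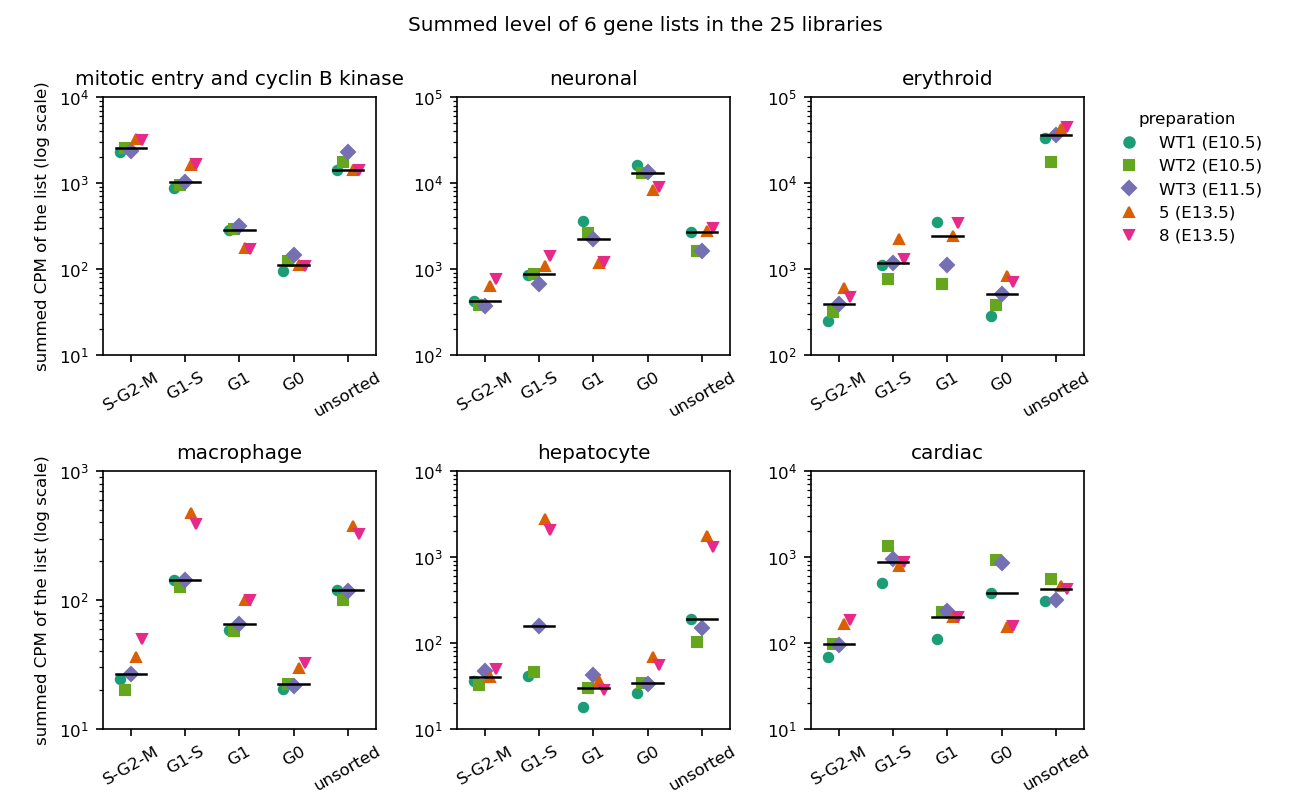
Summed CPM (log scale) of 6 gene lists in the 4 gates and in unsorted cells (x axis), with 1 symbol for each preparation and a line at the median. Genes of mitotic entry are highest in S-G2-M, at 2330 to 3300 CPM, and erythroid genes lie at 17800 to 45600 CPM in unsorted cells, against 248 to 3560 CPM in the 4 gates.

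Genes of heart and skeletal muscle fell more often than they rose. Of 18 cardiac genes 13 fell and 1 rose (median -2.40). Myh6, a cardiac myosin heavy chain (ENSMUSG00000040752.15, chr14:54941921-54966927, - strand, GRCm38), was at 2.09, 4.44, 5.19, 1.74 and 4.29 CPM in S-G2-M and at 40.5, 72.9, 36.9, 40.7 and 34.7 CPM in unsorted cells, without overlap (-3.71 ± 0.27, adjusted p = 7.55e-05), and Myl2, a ventricular light chain, changed by -3.75 ± 0.43. Tbx5, a factor of heart and forelimb, was the gene that rose (0.58 ± 0.12), Tbx20 and Gata4 were lower at -1.56 ± 0.17 and -0.71 ± 0.16, and Hand1, Hand2 and Nkx2-5, which did not pass, were at 0.09 ± 0.25, -0.002 ± 0.12 and -0.70 ± 0.38. Of 17 skeletal muscle genes 7 fell and 1 rose (median -1.04). Their pair medians were -0.91, -1.57, -1.92, -0.34 and -0.15, so the change was small in 5 and 8. The summed level in 5 and 8 was 526 and 470 CPM in S-G2-M and 519 and 502 CPM in unsorted cells. Myh3, the embryonic myosin (ENSMUSG00000020908.14, chr11:67078300-67102291, + strand, GRCm38), was at 1.31, 1.38, 1.11, 5.17 and 4.77 CPM in S-G2-M and at 16.9, 40.5, 18.4, 49.2 and 48.9 CPM in unsorted cells, without overlap (-3.83 ± 0.24, adjusted p = 3.57e-05). Pax7, which marks muscle progenitors and also dorsal neural tube, was the gene that rose, at 32.4, 29.3, 27.9, 36.6 and 33.8 CPM in S-G2-M and 22.7, 16.9, 17.7, 13.1 and 12.3 CPM in unsorted cells, again without overlap (0.97 ± 0.17, adjusted p = 0.0061). Tbx5 did not pass without 5 or 8 (adjusted p = 0.0586 and 0.0654).

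Of 23 mesenchyme and matrix genes 5 rose and 2 fell (median 0.20), against 8.84% and 14.6% of all genes. With a term for exon length 11 rose, without WT1 or WT2 3, without 8 2 and without 5 1. Prrx1, a factor of limb and head mesenchyme, was at 278, 249, 218, 248 and 205 CPM in S-G2-M and at 164, 185, 144, 167 and 191 CPM in unsorted cells, higher without overlap (0.49 ± 0.11, adjusted p = 0.0171). Dcn, the proteoglycan decorin, was at 2.68, 4.91, 4.1, 48.01 and 34.8 CPM in S-G2-M and at 4.77, 11.8, 13.1, 110.4 and 116 CPM in unsorted cells, lower in each pair (-1.36 ± 0.14, adjusted p = 0.000548), and Postn, periostin, was at -0.75 ± 0.20. In the cartilage list, 4 of 13 genes tested were higher and 2 lower, and without 8 2 were higher and 1 lower. Sox9, the master factor of cartilage (ENSMUSG00000000567.5, chr11:112782224-112787760, + strand, GRCm38), was at 74.8, 57.5, 52.2, 122 and 129 CPM in S-G2-M and at 42.7, 40.9, 22.3, 80.95 and 79.7 CPM in unsorted cells (0.76 ± 0.12, adjusted p = 0.00384), and its partner Sox5 was at 0.81 ± 0.11, while Hapln1 and Cnmd, matrix and membrane proteins of chondrocytes, were at -0.43 ± 0.10 and -1.34 ± 0.32. Endothelial genes fell in 14 of 15 cases (median -0.90), with Cldn5, a tight junction protein, at -1.45 ± 0.19 and Sox17, a factor of arterial endothelium, at -1.49 ± 0.25, and the groups overlapped for all 15. With no replicate block 4 endothelial genes fell, without 5 it was 9 and within WT1, WT2 and WT3 it was 1. Epithelial genes fell in 8 of 16 cases and none rose (median -0.57). Their pair medians were -0.62, -0.76, -1.02, -0.24 and -0.2, smallest in 5 and 8. The simple keratins Krt8 and Krt18 were at -1.33 ± 0.14 and -1.29 ± 0.13. Without WT2 5 epithelial genes fell and without 5 it was 4. Of 14 neural crest and Schwann cell genes 1 fell, against 14.6% of all genes. It was Th, the enzyme of catecholamine synthesis (-2.74 ± 0.39), made by sympathetic neuroblasts among others. Of 9 germ cell genes 1 rose, against 8.84% of all genes. It was Nanos3 (1.09 ± 0.25), and its levels were at or below 3.59 CPM. Without 5 or 8 the calls of Nanos3, Postn and Hapln1 were lost (adjusted p = 0.0721 to 0.099), and Prrx1 was lost without 5 (adjusted p = 0.0691). Cnmd was lost without WT2 or WT3 and with a term for exon length (adjusted p = 0.0517, 0.0595 and 0.0761), Postn also without WT2 or WT3 (adjusted p = 0.077 and 0.0846) and Hapln1 also without WT2 (adjusted p = 0.0709).

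Of 20 p53 targets 10 fell and 2 rose (median -0.48), and 5 fell without 5, as without 8. Trp53inp1 (ENSMUSG00000028211.11, chr4:11156431-11174379, + strand, GRCm38) was at 29.6, 26.8, 26.1, 27.2 and 23.9 CPM in S-G2-M and at 57.6, 63.1, 73.3, 92.8 and 88.8 CPM in unsorted cells, without overlap (-1.47 ± 0.14, adjusted p = 0.000388). Of the 2 that rose, Gtse1 (1.08 ± 0.17) is also a gene of G2, and Zmat3 (0.41 ± 0.12) did not pass without WT1, WT3, 5 or 8 (adjusted p = 0.0792 to 0.0979). Of 24 immediate early and handling genes 8 fell and none rose, with Ier3 at -1.3 ± 0.20 and the heat shock gene Hspa1b at -0.96 ± 0.21, which did not pass without 5 (adjusted p = 0.0737). Of 22 glycolysis and hypoxia genes 6 fell and 1 rose, but without 5 1 passed and without 8 2, all of them lower, against 10 lower and 3 higher in DESeq2. Hk1, a hexokinase, was at 31.9, 31.6, 34.7, 47.8 and 47.6 CPM in S-G2-M and at 70.5, 66.5, 82.01, 136 and 148 CPM in unsorted cells, without overlap (-1.32 ± 0.11, adjusted p = 0.000146); red cells also express it. Gapdh, the gene that rose, was at 0.72 ± 0.18, but GENCODE lists pseudogene copies of it, and it did not pass without 5 or 8 (adjusted p = 0.0957 and 0.0803). Of 11 mitochondrially encoded genes 0 passed in edgeR (1 at an unadjusted p under 0.05), and 0 passed in limma-voom or DESeq2.

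The size of the change was then compared between days, E13.5 (5 and 8) against E10.5 and E11.5 (WT1, WT2 and WT3). Day and the naming style of the preparations (WT1 to WT3 against 5 and 8) cannot be told apart. Of 21569 genes the change was more positive at E13.5 for 38 (0.176%) and more negative for 81 (0.376%; together 0.552%; edgeR quasi-likelihood test of the interaction). Of the 81, 9 were among the 14 hepatocyte genes tested. Alb, albumin (ENSMUSG00000029368.10, chr5:90460897-90476602, + strand, GRCm38), was at 1.1, 1.197, 1.91, 5.94 and 8.09 CPM in S-G2-M and at 8.91, 4.13, 3.11, 472 and 354 CPM in unsorted cells. Its unsorted level was far higher in both E13.5 preparations than in the others, while the gate stayed at or below 8.09 CPM, and the change differed by -4.08 ± 0.59 (adjusted p = 0.0424). C3, a complement protein of liver, differed by -3.75 ± 0.40 and Afp by -3.33 ± 0.34. Nxpe2 was at 1.797, 1.53, 2.13, 1.33 and 0.899 CPM in S-G2-M and at 3.18, 1.77, 1.25, 38.9 and 42.2 CPM in unsorted cells, and differed by -5.06 ± 0.51 (adjusted p = 0.0215), and Ypel4 differed by -3.82 ± 0.43. In the other direction stood Actc1, an actin of heart and early muscle, at 3.17, 7.16, 4.203, 58.8 and 54.3 CPM in S-G2-M and 32.6, 71.3, 40.2, 121 and 106 CPM in unsorted cells. In the gate its E13.5 levels stood far above the earlier ones, and the difference was 2.30 ± 0.16 (adjusted p = 0.0134). Slc30a10, a manganese exporter, differed by 3.90 ± 0.47, Mt2, a metallothionein with 73.5% of its exon length under exons of the opposite strand, by 3.60 ± 0.48, and Kcnn4, a potassium channel of red cells, by 2.47 ± 0.32; all 3 were lower in S-G2-M in each preparation.

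Mitotic and neural progenitor genes were compared between days in the same way. In all 80 genes of the mitotic lists the mean change was larger at E13.5, against 49.2% of all genes tested, and 3 of them passed the test, Cdc25c (1.40 ± 0.18), Cenpa (1.27 ± 0.17) and Bora (1.02 ± 0.16). The part of the length and gene type differences given above in this was not tested. Of 20 neural progenitor genes 4 passed, all more positive at E13.5, among them Pax6 (1.28 ± 0.17) and the proneural or patterning factors Neurog2 (1.89 ± 0.26) and Olig2 (1.91 ± 0.29). Of 30 neuronal genes Nefl, a neurofilament, was more positive (1.83 ± 0.19) and Mapt, the tau protein, and Pou4f1, a factor of sensory neurons, more negative (-3.11 ± 0.25 and -2.37 ± 0.24). These calls rest on few libraries: without WT1 32 genes passed, without WT2, 5 or 8 none did (edgeR, with 1775, 1087 and 1071 at an unadjusted p under 0.05), and without WT3 4985.

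**Figure D5:**
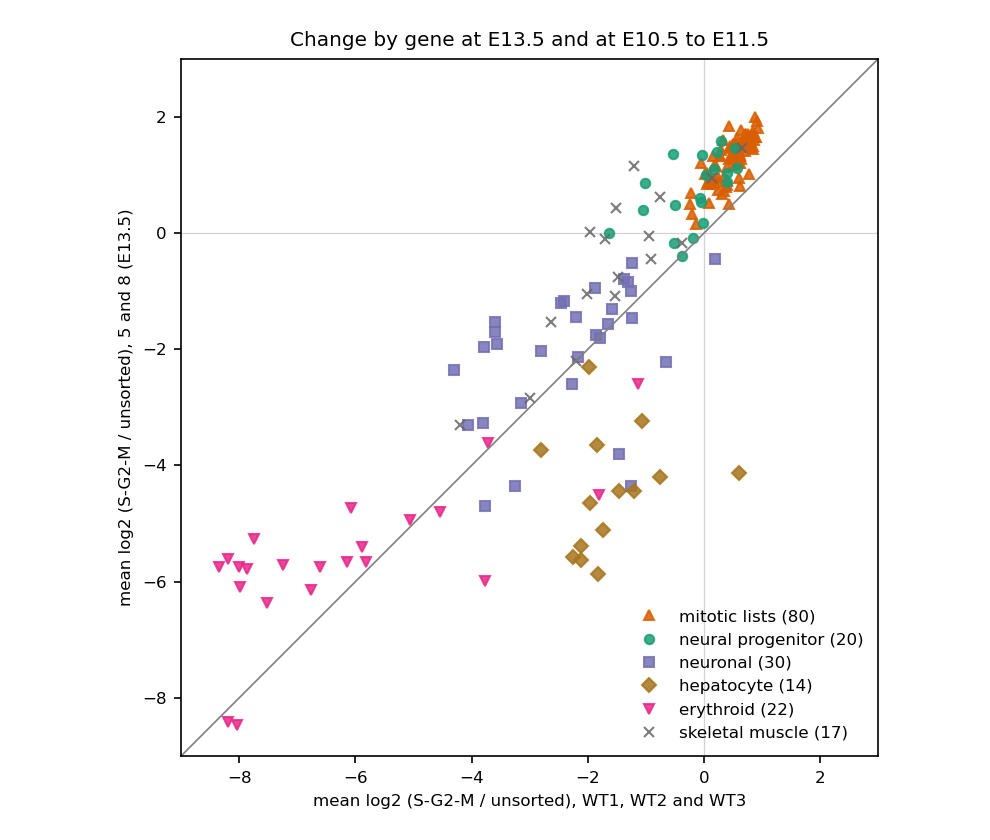
Mean log2 ratio of S-G2-M over unsorted in WT1, WT2 and WT3 (x axis) and in 5 and 8 (y axis) for each tested gene of the mitotic lists and of 5 cell type lists, with the line of equal change. All 80 mitotic genes lie above the line, and the 14 hepatocyte genes lie below it.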

How the data were processed

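Raw counts of reads per gene were deposited by the authors, 1 column for each lane of a library. Per the submitters' processing notes, STAR 2.5.3 and HTSeq 0.8.0 were used with build mm10, and the strand setting of the counting is not given in the sources used here. Lane columns were summed to libraries. Genes were located by ID in GENCODE M21 (GRCm38). The 10 libraries of the gate and of unsorted cells were tested with edgeR 4.0.16 in R 4.3.3 (TMM scaling, robust quasi-likelihood test, genes with a count of at least 10 in the size of a group and 15 in all, preparation as a block, Benjamini-Hochberg adjustment over all genes tested). The standard error is the log2 change over the square root of F, and pair differences had 0.5 added to each count. CPM used TMM library sizes. The pairing comes from the preparation names in the labels. Over 16000 genes the deviations of same-named libraries from their group mean of the same day correlated at 0.627 at E10.5 and 0.313 at E13.5, and without Xist, Tsix and chromosome Y (15995 genes) at 0.628 and 0.118. The difference between days was an interaction term. DESeq2 1.42.0, limma 3.58.1, other scalings and filters, no block, all 25 libraries, a 2-fold minimum, each day set alone and each preparation left out were alternatives; a term for exon length over protein-coding genes was chosen after seeing the data. Named genes are the 8 highest and 8 lowest changes (mean log2 CPM of at least 3, same direction in all 5 preparations), up to 2 members each way per list, 17 cell cycle genes and the 4 highest and 4 lowest day differences. Predicted, RIKEN and small RNA genes were left out of the rankings by change and by day difference. Other list members in the text were chosen after their values were seen. The members and the 35 lists were chosen with earlier results of these data known. The test scripts were checked on simulated data. A few list members are not reported here.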

Additional observations from a re-analysis of the deposited data

Results flagged for a closer look

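In 122 groups of 5 values examined, 3 had a value far from the other 4, where chance marks about 1 in 20 groups. These were the log2 difference of Cdkn1b in WT3 (-0.30, against a group median of 0.14), that of Postn in WT1 (0.27, against a median of -0.88), and the share of counts of Gm26917 and Gm42418, which hold ribosomal RNA sequence, in the unsorted library of WT1 (9.47%, against a median of 1.62%).

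For 16 named genes the change of S-G2-M over unsorted differed between E13.5 and the earlier days in the edgeR interaction test. It was more positive at E13.5 for Slc30a10 (3.90), Mt2 (3.60), Kcnn4 (2.47), Actc1 (2.30), Cnmd (1.70), Troap (1.45), E2f7 (1.28), Pax6 (1.28), Cenpa (1.27), Pif1 (1.22) and Cdca2 (1.15). It was more negative for Nxpe2 (-5.06), Alb (-4.08), Ypel4 (-3.82), C3 (-3.75) and Afp (-3.33), all on the log2 scale.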

How the results depend on the processing

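The count of 5045 genes called lay between 4852 and 6480 under other scalings, filters and tools, at 4363 with a term for exon length, at 6419 with no replicate block for the pairing, and at 7245 (block) and 7088 (no block) with all 25 libraries. Scaling by totals put 46.4% of the calls higher, against 37.8%. A 2-fold minimum left 423 genes, with 0 higher in edgeR (1333 genes at an unadjusted p under 0.05). Leaving out 1 preparation gave 1572 to 6047 genes, within WT1, WT2 and WT3 it was 666, and within 5 and 8 it was 12365. The day difference of 119 genes was less stable: 493 with no filter, 618 in DESeq2, 21 in limma-voom, 190 with no replicate block, 893 with a term for exon length, and 0 to 4985 without 1 preparation; the cause was not tested. Of 106 named genes called, the 2-fold minimum lost 85, WT1, WT2 and WT3 alone 63, leaving out 5 lost 37 and leaving out 8 lost 35. Within 5 and 8 the change of Ccnd1 (0.14), Dll3 (0.07), E2f1 (0.45) and Gmnn (0.28) turned positive. The shallowest library, S-G2-M of 8 with 14692256 counts, limits what can be seen of low genes.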

Other observations

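Cytosolic ribosomal protein genes, were added as a list after the values were seen: of 80 tested, 38 fell in S-G2-M and 5 rose (median -0.39), with pair medians of -0.23 in WT1, -0.10 in WT2, -0.87 in WT3, -0.37 in 5 and -0.27 in 8. Their transcripts are short, and short coding genes as a class were lower too, so the part of length was not tested. Of 172 small nucleolar RNA genes 23 rose (13.4%) and 0 fell in edgeR, against 8.84% and 14.6% of all genes tested. Of 1849 processed pseudogenes 42 rose (2.27%) and 196 fell (10.6%), both shares below those of all genes.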
